A study of Mus musculus with 15 samples.

Results

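Collagen I gel and fibrin gel were compared as surroundings for the same renal epithelial cells. The comparison ran through the authors' 2 deposited tables of fold changes against a flat (2D) culture, 1 for each gel, joined on the gene identifier. For each gene the log2 ratio in fibrin was subtracted from that in collagen I, so that a negative difference means higher RNA in fibrin. In such bulk libraries, fewer cells that make an RNA and less of it in each cell cannot be told apart. Of 27179 genes in each table, 13799 reached a base mean of 10 in both and were tested. The base mean is the mean normalized read count over the 6 libraries of a table. A further 303 genes reached this level in 1 table only, 216 of them in the fibrin table, and 13077 in neither. The smaller base mean of the last gene kept was 10.005, and that of the first gene left out was 9.99.

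The cells were induced renal tubular epithelial cells (iRECs), 1 mouse line obtained by direct reprogramming of fibroblasts with transcription factors. The collagen I group held 3 libraries from cells embedded by hand in collagen I, and the fibrin group held 3 from cells embedded by hand in fibrin. The shared reference group held 3 libraries from 2D plates, and the remaining groups, used for position only, were hand-made Matrigel cultures and cultures bioprinted with both fibrin and collagen I. All 15 libraries shared the renal epithelial growth medium REGM and harvest on day 7, and the 3 replicates of each group were started in parallel at passages 35, 48 and 53. They are cultures of 1 line and not separate animals, so the p-values measure the spread between these cultures only.

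Collagen I is the main fibrillar collagen of connective tissue. Cells bind it through integrins with the Itgb1 chain, such as those with Itga1 or Itga2, and through the discoidin domain receptors Ddr1 and Ddr2. Fibrin is the polymer that thrombin makes from fibrinogen in a clot, a provisional matrix bound through integrins of the Itgav, Itgb3 and Itga5 type and dissolved by plasmin. Injured tubule cells are known to secrete acute phase proteins such as lipocalin 2 (Lcn2) and complement C3.

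The tables give 1 mean and 1 fold change per gene, with no values per library. Whether all 3 cultures of a gel moved the same way was therefore not analysed here, and the sequencing depth of each library is unknown. A mean level for each gel was computed from the base means, in normalized reads, with no error of its own. The base means summed to 42789952 normalized reads in the collagen I table and 43059461 in the fibrin table. All 12 markers of tubule epithelium that were listed passed the filter, among them Cdh16, Pax8 and Hnf4a, and 0 of them were called between the gels (z-test, adjusted p under 0.05), with 0 at an unadjusted p under 0.05. Of the markers of other cell types, 4 of 18 immune, 2 of 12 fibroblast, 6 of 15 endothelial, 5 of 12 smooth muscle and 7 of 13 podocyte genes passed the filter. The defining genes Cd3e, Cd4, Tyrobp, Thy1, Kdr and Nphs1 had a base mean of 0 in both tables, while Cdh5, Pecam1, Cd79a and Ptprc were detected, at base means of 6.27, 8.35, 6.56 and 0.646 in the collagen I table and 12, 7.15, 7.98 and 3.02 in the fibrin table, by the authors' deposited values. All listed markers of a type, tested or not, summed to 1372 normalized reads in collagen I and 1022 in fibrin for immune cells. The sums were 1051 and 1752 for endothelium, 1371 and 1120.2 for smooth muscle, 21047 and 24705 for podocytes, and 62.6 and 106 for fibroblasts. The part of such cells in the results was not tested.

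Most genes differed little between the 2 gels, and the genes that passed the test were mostly higher in fibrin. The difference passed the test (two-sided z-test, Benjamini-Hochberg adjusted p under 0.05 over all genes tested) for 74 genes, 0.536% of those tested. Of these, 67 were higher in fibrin (0.486%) and 7 were higher in collagen I (0.0507%). The median difference was 0.016 on the log2 scale, its quartiles were -0.13 and 0.15, and 98.1% of genes differed by less than 1. The median standard error of a difference was 0.34. At an unadjusted p under 0.05 there were 409 genes, 293 of them higher in fibrin and 116 higher in collagen I. The standard errors of both tables include the 2D libraries, whose mean cancels in the difference. With the part of the 2D libraries taken out, 264 genes were called, 212 higher in fibrin and 52 in collagen I. That part was not estimated per gene, and was assumed to equal that of a gel's libraries for every gene. With the spread of the statistic estimated from its middle part 509 were called, 367 and 142. The last gene within the threshold was Dennd2d with an adjusted p of 0.0494, and the first outside was Cx3cl1 with 0.0502.

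**Figure D1:**
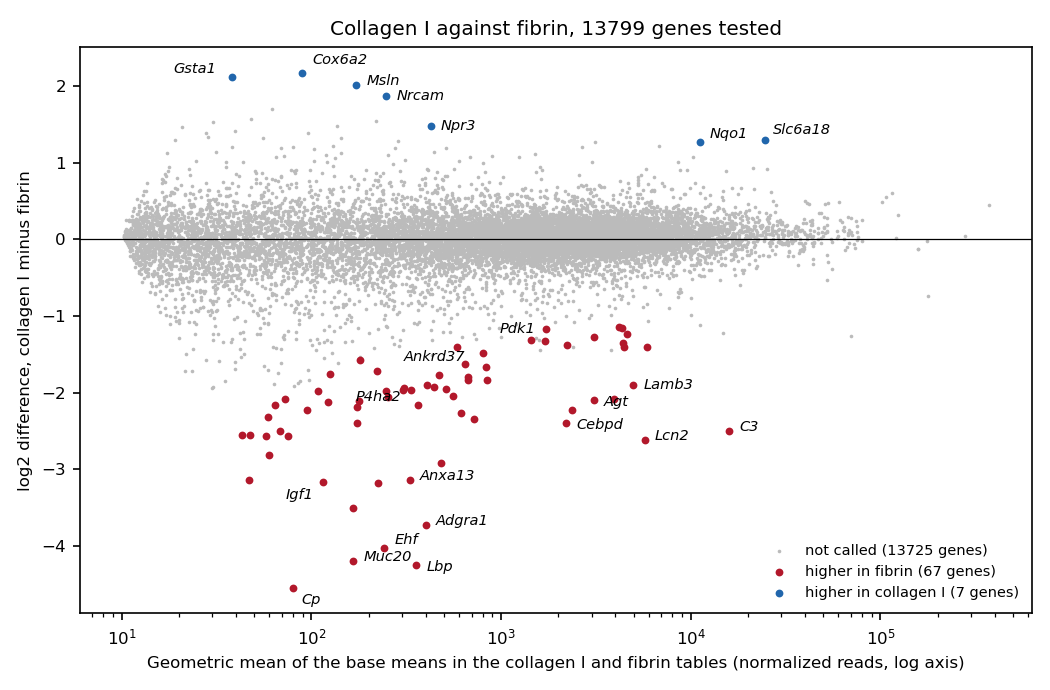
Difference between collagen I and fibrin (log2, vertical axis) against the geometric mean of the gene's 2 base means (normalized reads, log axis), 1 point per gene for 13799 genes. Red points are the 67 genes called higher in fibrin and blue points the 7 called higher in collagen I. The red points reach from -1.14 (St3gal5) to -4.55 (Cp), and no blue point lies above 2.17 (Cox6a2).

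Reading both gels against 2D separates the 67 genes. By the adjusted p in the authors' deposited tables, 35 of the 67 were above 2D in fibrin and were not called in collagen I, and 20 were below 2D in collagen I and were not called in fibrin. A further 7 were above 2D in fibrin and below it in collagen I, 2 were above 2D in both gels (Anxa13 and Alcam), and 3 were below 2D in both gels (P4ha2, Ankrd37 and Pdk1). Of the 7 genes higher in collagen I, 3 were above 2D in collagen I only (Gsta1, Msln and Nrcam), 3 were below 2D in fibrin only (Cox6a2, Npr3 and Slc6a18), and Nqo1 was above 2D in both. Among all genes tested, the deposited tables call 5.2% higher and 3.3% lower in fibrin, and 6.58% higher and 4.73% lower in collagen I. These counts share the 2D libraries, and a gene called against 2D in 1 gel only is not thereby shown to differ between the gels.

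Acute phase proteins, secreted during inflammation and injury, held the 2 largest differences of all genes tested. Cp, the copper-carrying ferroxidase ceruloplasmin, lies at chr3:19956933-20009750 (mm10). Its level was 13.8 normalized reads in collagen I and 770.4 in fibrin, against 18.8 in 2D, 13.8 in the printed cultures and 8.75 in Matrigel. Fibrin alone stood apart, and the other 4 groups lay within a narrow band. The difference was -4.55 ± 0.52 on the log2 scale (SE, 3 cultures a group), or 23.4-fold by the fitted values, with an adjusted p of 8.67e-15. The ratio of the levels was larger, at -5.80 on the log2 scale. Lbp, which carries bacterial lipopolysaccharide to its receptor (chr2:158306493-158332852), was at 77 reads in collagen I, 93.8 in 2D and 2891 in fibrin, with a difference of -4.25 ± 0.47 and an adjusted p of 1.66e-15. Cd14, a co-receptor for the same lipopolysaccharide, was also higher in fibrin, at 9522 reads against 3056 (-1.40 ± 0.32, adjusted p 0.00353).

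Lcn2 and Ltf, which bind iron or its carriers, were higher in fibrin. Lcn2, lipocalin 2, which captures bacterial siderophores and is a marker of tubule injury (chr2:32384637-32387739), was at 388 reads in collagen I, 1974 in 2D and 53286 in fibrin. It was thus lowest in collagen I and highest in fibrin of the 5 groups. In the authors' deposited tables Lcn2 fell by 1.55 ± 0.41 in collagen I and rose by 1.07 ± 0.37 in fibrin, and the difference was -2.62 ± 0.55 (adjusted p 0.000922). The ratio of the levels was far larger than this difference, at -7.10 on the log2 scale. Ltf, lactoferrin, which binds free iron, was at 27.9 reads in collagen I and 283 in fibrin (-2.57 ± 0.51, adjusted p 0.000285). Fth1, Tfrc and Slc40a1, which store, import and export iron in cells, differed by 0.48, 0.38 and 0.12 and did not pass the test. Transferrin (Trf), the iron carrier of plasma and a member of the same list, was too low in fibrin to be tested, with log2 changes of 1.90 in collagen I and 0.27 in fibrin at base means of 22.7 and 5.04 in the authors' deposited tables.

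A2m, the broad protease trap alpha-2-macroglobulin, was at 6.43 reads in collagen I and 145 in fibrin (-3.14 ± 0.53, adjusted p 5.09e-06). Its level in collagen I is a small remainder after the level in 2D is subtracted, and is rough. Of the neighbouring Serpina3 copies on chromosome 12, Serpina3h, Serpina3g, Serpina3i and Serpina3f were called, with differences of -3.18, -2.92, -2.81 and -2.57. These genes are close copies, and how the authors' counting split their reads is not given, so the share of each copy is uncertain. Serpinf1, an anti-angiogenic member of the serpin family, differed by -2.19 ± 0.53. In the whole list of acute phase and iron proteins, 4 of 18 members tested (Cp, Lbp, Lcn2 and Serpina3g) were higher in fibrin and 0 in collagen I, with a median difference of -0.23 beside 0.016 over all genes.

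Complement genes followed. C3, the central component of all complement pathways (chr17:57203967-57228136), was at 5215 reads in collagen I, 9677 in 2D, 9724 in the printed cultures, 12114 in Matrigel and 58336 in fibrin. Fibrin was the group that stood above the rest. The difference was -2.50 ± 0.52 (adjusted p 0.000852). C1s1 and C1ra, the proteases of the first component, differed by -2.05 ± 0.38 (adjusted p 7.35e-05) and -1.83 ± 0.33 (adjusted p 2.24e-05), and both have close copies in the mouse genome. Factors of the alternative pathway and its control had the same sign without passing the test: Cfi -1.85 (adjusted p 0.131) and Cfb -1.03 (adjusted p 0.774). In all, 3 of 19 complement genes tested were higher in fibrin and 0 in collagen I, and the median was -0.43. With the 2D part taken out of the standard errors, 6 of the 19 were higher in fibrin. Among 28 markers of tubule injury and repair, Lcn2 and C3 were the 2 called, with a median of -0.24, and the secreted phosphoprotein Spp1 was at 47117 reads in collagen I and 147183 in fibrin without passing the test (-1.26 ± 0.38, adjusted p 0.138).

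Cytokines, chemokines and targets of NF-kB, the transcription factor of inflammatory signalling, had a list median further below 0 than the acute phase list, but none passed the test. Of 35 members tested, 0 were called in either direction by the z-test. At an unadjusted p under 0.05, 6 were higher in fibrin and 1 in collagen I, and 30 of the 35 differences lay below 0, with a median of -0.45. Nfkbiz, a nuclear partner of NF-kB, was at 2042 reads in collagen I and 6989 in fibrin (-1.45 ± 0.40, adjusted p 0.0523). The membrane-bound chemokine Cx3cl1 was at 1488 and 5037 reads (-1.41 ± 0.39, adjusted p 0.0502). Both were just outside the threshold, and both were within it when the differences were centred on their median. With the 2D part taken out, 3 of the 35 were higher in fibrin. Among called genes outside this list, Lta, a cytokine of the tumour necrosis factor family, differed by -2.55 ± 0.57, and Casp1, the protease that matures interleukin 1 beta, by -2.56 ± 0.54. Il1b, its substrate, differed by -0.11 with an adjusted p of 1.

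Among the called genes were 2 known regulators of this response. Cebpd, a C/EBP transcription factor of acute phase genes (chr16:15887286-15889545), was at 964 reads in collagen I, 1072 in 2D, 977 in Matrigel, 1129 in the printed cultures and 8425 in fibrin. The other 4 groups lay close together, and fibrin was 5.27-fold above collagen I by the fitted difference (-2.40 ± 0.47, adjusted p 0.000169). Zc3h12a, an RNase that degrades inflammatory mRNAs, was at 263 and 2298 reads (-2.34 ± 0.51, adjusted p 0.00137).

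Because a C/EBP factor and secreted acute phase genes were higher in fibrin together, the promoter stretches of 3 such genes are shown with the matches to a C/EBP motif. The motif was chosen after the genes were seen, and only stretches that held a match were considered for display. It was searched as TTGCNNAA on both strands (a match on the other strand appears as its reverse complement), in windows from 250 bases before to 50 after the gene start in RefSeq (build GRCm38.p6, the same assembly as mm10). Windows were found for 48 of the 67 genes higher in fibrin and 4 of the 7 higher in collagen I. The 250 bases before the start are printed on the strand of the gene, and capitals mark the match. They cover chr2:32387740-32387989 (minus strand) for Lcn2, chr17:57228137-57228386 (minus strand) for C3 and chr9:111019042-111019291 (plus strand) for Ltf, each just upstream of the annotated gene.
Lcn2: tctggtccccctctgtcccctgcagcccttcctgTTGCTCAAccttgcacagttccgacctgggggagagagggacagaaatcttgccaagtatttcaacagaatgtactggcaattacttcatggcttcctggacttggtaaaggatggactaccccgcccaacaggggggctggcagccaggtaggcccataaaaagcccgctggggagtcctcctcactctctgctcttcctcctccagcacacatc
C3: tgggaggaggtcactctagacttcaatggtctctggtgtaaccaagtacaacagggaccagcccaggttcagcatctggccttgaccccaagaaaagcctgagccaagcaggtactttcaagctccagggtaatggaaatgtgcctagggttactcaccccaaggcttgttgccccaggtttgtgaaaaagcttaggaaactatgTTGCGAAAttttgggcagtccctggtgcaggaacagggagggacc
Ltf: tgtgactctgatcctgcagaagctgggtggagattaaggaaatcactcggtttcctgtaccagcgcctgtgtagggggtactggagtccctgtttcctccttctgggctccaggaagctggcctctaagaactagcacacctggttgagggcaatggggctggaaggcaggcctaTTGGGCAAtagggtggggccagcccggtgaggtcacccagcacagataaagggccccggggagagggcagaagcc
The match began -45 bases from the start in C3, -75 in Ltf and -216 in Lcn2. A match was present for 10 of the 48 genes higher in fibrin (20.8%), among them also Cp, C1s1, C1ra, Serpina3f, Mgst1, Vtcn1 and Bmf, and for 1032 of 10628 genes tested that had a window (9.71%). The match of C1ra lay after the start. The windows of Serpina3g, Serpina3i and Zc3h12a, also higher in fibrin, held no match. None of the 4 collagen I genes with a window held one. A motif of NF-kB, GGGNNTTTCC, was present for 3 of the 48 (6.25%) and for 2.06% of genes tested, and one of the antioxidant response, TGACNNNGC, for 3 of the 48 (6.25%) and 17.0%. The windows of the 4 collagen I genes that had one, Nqo1 and Gsta1 among them, held neither of these motifs. Bases further than 250 before or 50 after the start were not searched. A gene without a match may therefore hold the motif elsewhere. These are matches of letters in a window, and binding was not measured.

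Few epithelial genes passed the test, but Ehf had one of the largest differences. Ehf, an epithelial transcription factor of the ETS family (chr2:103263431-103303275), was at 24.9 reads in collagen I, 99.7 in 2D, 141 in the printed cultures, 189 in Matrigel and 1789 in fibrin. The fibrin level was the highest and the collagen I level the lowest of the 5. The fitted difference was -4.02 ± 0.51 (adjusted p 1.03e-11), smaller than the ratio of the levels, -6.16 on the log2 scale. Ehf was the 1 called gene among 44 junction and polarity genes tested, whose median was -0.03. Cdh1, Tjp1 and Ocln, proteins of adherens and tight junctions, differed by -0.18, -0.30 and 0.30. The related factor Elf3 differed by -0.99 and did not pass the test (adjusted p 0.224).

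Several called genes of epithelial membranes were higher in fibrin, and Slc6a18 was higher in collagen I. Muc20, a kidney membrane mucin, was at 718 reads in fibrin and 138 in 2D, and its level in collagen I was too low to be resolved from the base means (-4.20 ± 0.48, adjusted p 1.48e-14). Anxa13, an annexin of polarised epithelium, was above 2D in both gels and higher in fibrin, at 1787 reads against 135 and 96.8 in 2D (-3.14 ± 0.45). Scnn1a, the alpha subunit of the epithelial sodium channel, was at 52.7 reads in collagen I and 333 in fibrin (-2.11 ± 0.42, adjusted p 0.000222). Its partner subunits Scnn1b and Scnn1g did not pass the test, with differences of 0.85 and 0.19. Scnn1a was the 1 called gene of 10 tested markers of the loop, distal tubule and collecting duct. Slc26a4 of that list reached the base mean in the fibrin table only and was not tested. Its log2 change was 1.73 in fibrin and -0.42 in collagen I in the authors' deposited tables, at base means of 68.2 and 4.11. Car2, cytosolic carbonic anhydrase, was higher in fibrin by 3.49-fold (-1.80 ± 0.36, adjusted p 0.000285). The zinc importer Slc39a4 differed by -2.23, the immune checkpoint ligand Vtcn1 by -2.51, and Vwa2, a protein of epithelial basement membranes, by -2.40. Among 32 proximal tubule markers tested 0 were called, with 3 higher in fibrin and 1 in collagen I at an unadjusted p under 0.05 and a median of -0.034. Slc6a18, a proximal tubule amino acid transporter outside that list, was higher in collagen I, at 36558 reads against 13508 (1.30 ± 0.34, adjusted p 0.0335).

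**Figure D2:**
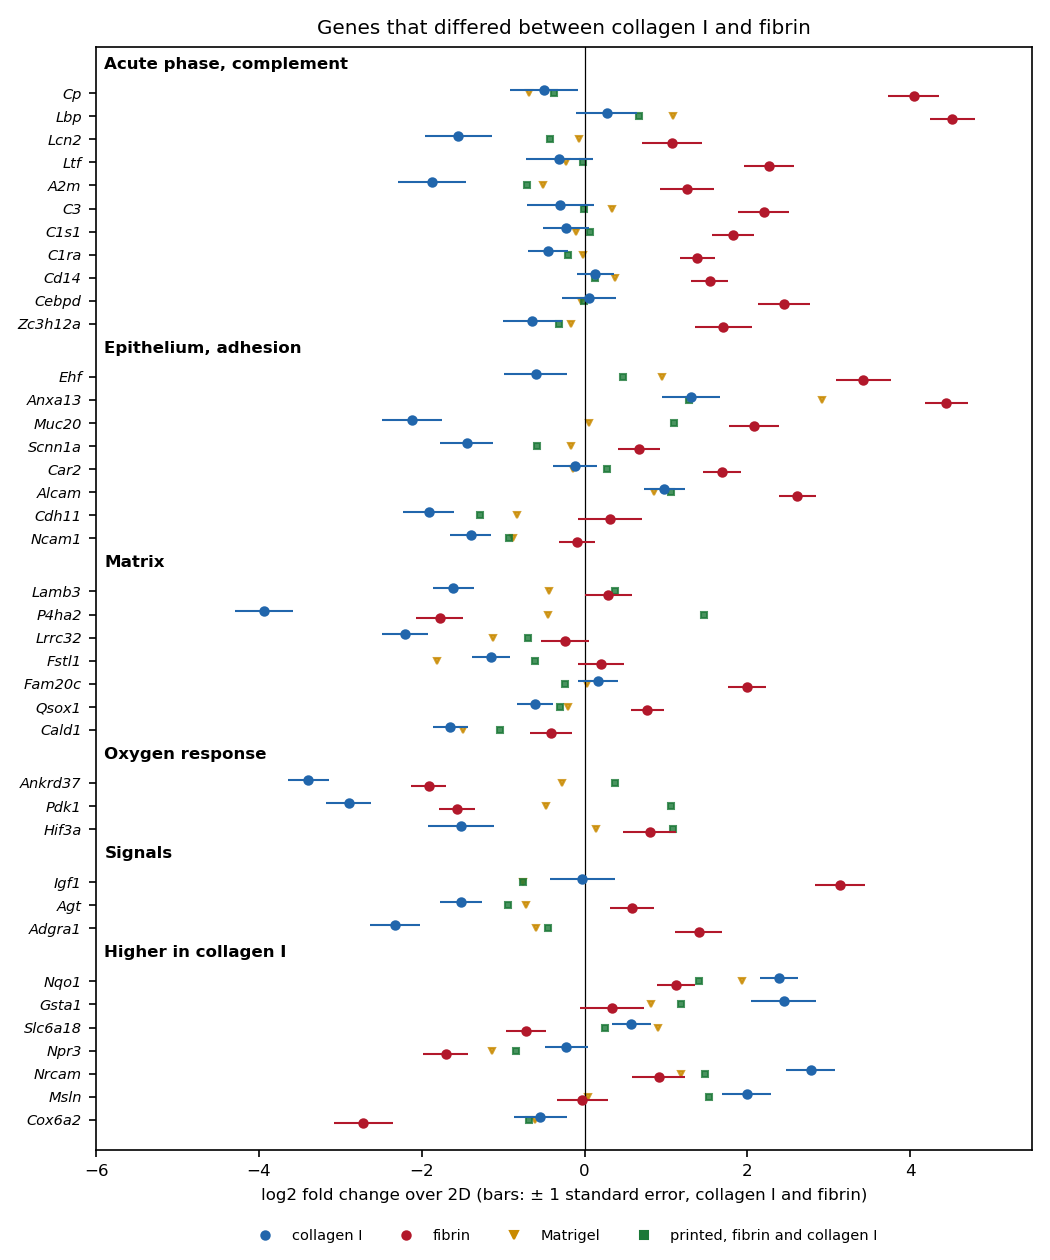
Log2 fold change over 2D from the authors' deposited tables (horizontal axis) for 39 genes called between the gels, grouped by role. Blue circles are collagen I and red circles fibrin, with bars of 1 standard error over 3 cultures a group, green squares are printed cultures and gold triangles Matrigel, drawn without bars. Fibrin lies right of collagen I in all groups but the last, and P4ha2, Ankrd37 and Pdk1 are among the genes that lie left of 0 in both gels.

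Cdh11 and Ncam1, adhesion molecules listed with mesenchymal genes, were lower in collagen I than in fibrin. Cdh11, a mesenchymal cadherin (chr8:102632095-102785493), was at 632 reads in collagen I, 2494 in 2D and 4681 in fibrin (-2.23 ± 0.50, adjusted p 0.00282). Ncam1, a neural cell adhesion molecule also made in the developing kidney, was at 566 and 1684 reads (-1.31 ± 0.34, adjusted p 0.0236). In the authors' deposited tables both fell below 2D in collagen I, by 1.92 and 1.40, while the fibrin values were 0.32 and -0.088. These were 2 of 25 mesenchymal genes tested, with 0 higher in collagen I and a median of -0.33. Fn1, fibronectin, was at 2129 reads in collagen I and 5302 in fibrin and did not pass the test (-1.07 ± 0.37, adjusted p 0.375). Vim, Zeb1 and Cdh2 differed by -0.12, -0.28 and 0.0094. Cald1, which binds actin and tropomyosin, was the 1 called gene of 30 in the actin list (-1.24 ± 0.33, adjusted p 0.0404). Alcam, a further adhesion molecule of the immunoglobulin family, was above 2D in both gels and higher in fibrin (-1.63 ± 0.34, adjusted p 0.000773).

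Of 31 genes of the TGF-beta pathway tested, 2 were higher in fibrin and 0 in collagen I, with a median of -0.25. Lrrc32, which tethers latent TGF-beta to the cell surface, was at 74.8 reads in collagen I and 354 in fibrin (-1.96 ± 0.41, adjusted p 0.000902). Fstl1, a secreted glycoprotein of the follistatin family, was at 1964 and 6062 reads (-1.35 ± 0.36, adjusted p 0.0404), and its call was lost when genes with a base mean under 100 were left out, as it was for Cald1. The ligands Tgfb1, Tgfb2 and Tgfb3 differed by -0.11, -0.38 and -0.15. Of 21 targets of the mechanosensitive factors YAP and TAZ, 0 were called by the z-test, with 1 at an unadjusted p under 0.05 and a median of -0.19.

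No receptor for either gel passed the test. As 0.536% of all genes tested were called, a list of 7 or 10 genes would seldom hold a called gene. Of 7 receptors for fibrillar collagen tested, 0 were called, and 2 were higher in fibrin at an unadjusted p under 0.05. Itga2, the collagen-binding integrin chain of epithelia, was at 612 reads in collagen I, 1689 in 2D and 2318 in fibrin (-1.29 ± 0.51, 95% interval -2.29 to -0.28, adjusted p 0.739). Itga1, the other such chain, differed by -0.89 ± 0.32 (adjusted p 0.456). The partner chain Itgb1 differed by -0.05 (95% interval -0.64 to 0.54) and the collagen-activated kinase Ddr1 by 0.019 (-0.53 to 0.57). The remaining members Ddr2, Lair1 and Itga10 lay between -0.13 and -0.053. Of 10 receptors for fibrin, fibronectin and vitronectin, 0 were called and 0 had an unadjusted p under 0.05, and 9 of the 10 differences lay below 0. Itgb3, Itgav and Itga5 differed by -0.30, -0.40 and -0.066. The widest was Icam1, a leukocyte ligand that also binds fibrinogen, with -0.74 (95% interval -1.56 to 0.09).

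No gene of fibrin breakdown passed the test either, and with 0.536% of all genes tested called, a list of 16 would seldom hold one. Of 16 genes of the plasminogen system and coagulation surface tested, 0 were called, 1 was higher in each gel at an unadjusted p under 0.05, and the median was 0.19. The activators Plat and Plau, which turn plasminogen into plasmin, differed by 0.29 (95% interval -0.33 to 0.90) and 0.23 (-0.46 to 0.92). Plaur, the receptor of Plau, was at 7349 reads in collagen I and 4808 in fibrin (0.61 ± 0.35), and Procr, the endothelial protein C receptor, at 3074 and 1752 (0.69 ± 0.33, unadjusted p 0.0354). Fga, the alpha chain of fibrinogen, is an acute phase gene as well as a chain of the precursor of fibrin. It was at 20.7 reads in collagen I and 133 in fibrin (-1.71 ± 0.54, adjusted p 0.195).

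Of the matrix the cells make themselves, single genes were called. Lamb3, the beta chain of laminin 332 in epithelial basement membranes (chr1:193294353-193343878), was at 1574 reads in collagen I, 5960.4 in 2D, 4449 in Matrigel, 8419.6 in the printed cultures and 7233 in fibrin. Collagen I was the low group. The difference was -1.90 ± 0.39 (adjusted p 0.000433). Lama3, an alpha chain of the same laminin, had the opposite sign and did not pass the test. It differed by 1.03 ± 0.37 (adjusted p 0.436), with 180.2 reads in collagen I and 86.9 in fibrin against 494 in 2D. Lama1, a chain of embryonic laminin, differed by -1.11 ± 0.37 (adjusted p 0.281). Of 24 basement membrane genes tested 1 was called, and the median was -0.14.

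Of 14 interstitial collagens tested 0 were called by the z-test, with 2 higher in fibrin at an unadjusted p under 0.05 and the median at -0.49. Col14a1, a collagen that associates with fibrils, was the furthest from 0 (-1.92 ± 0.56, adjusted p 0.0886). Col1a1, a chain of collagen I itself, was low in both gels, at 41.4 reads in collagen I and 83.2 in fibrin against 239.9 in 2D (-0.86 ± 0.47). Of 25 collagen-modifying enzymes 1 was called, P4ha2, a prolyl hydroxylase that stabilises the collagen helix. The other prolyl and lysyl hydroxylases P4ha1 and Plod2 differed by -0.11 and -0.035. Loxl1, an enzyme that cross-links elastin and collagen, was at 444 and 1074 reads (-1.05 ± 0.32, adjusted p 0.17). Outside these lists, Fam20c, the kinase of secreted proteins, and Qsox1, a secreted sulfhydryl oxidase, were higher in fibrin (-1.84 ± 0.34 and -1.38 ± 0.30). Of 24 metalloproteinases and inhibitors tested 0 were called, and 0 had an unadjusted p under 0.05. Mmp13 and Mmp17 of that list reached the base mean in the fibrin table only and were not tested. Their log2 changes in the authors' deposited tables were 1.28 and 1.04 in fibrin and 0.28 and 0.48 in collagen I.

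Of the genes called between the gels, 3 that are known to respond to low oxygen were below 2D in both gels and lower in collagen I: P4ha2, Ankrd37 and Pdk1. P4ha2 (chr11:54100924-54131668), itself a target of the hypoxia-inducible factor HIF, was at 30 reads in collagen I, 195 in fibrin, 156 in Matrigel, 625 in 2D and 2872 in the printed cultures. By these levels the groups were spread widely, but the change in Matrigel in the authors' deposited table was -0.45 with an adjusted p of 0.388, not called. In the authors' deposited tables P4ha2 fell by 3.94 ± 0.36 in collagen I and by 1.78 ± 0.29 in fibrin, and the gels differed by -2.16 ± 0.46 (adjusted p 0.00113). Ankrd37, a small ankyrin repeat protein induced by HIF, was at 107 reads in collagen I, 387 in fibrin and 1359.5 in 2D (-1.48 ± 0.33, adjusted p 0.00238). Pdk1, the kinase that keeps pyruvate out of mitochondria, was at 305, 1016 and 2780.3 reads in the same order (-1.33 ± 0.35, adjusted p 0.0359). Both followed the order of P4ha2 through the 3 cultures.

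Hif3a, a HIF alpha subunit, was at 3.25 reads in collagen I, 123 in fibrin and 69.6 in 2D (-2.32 ± 0.52, adjusted p 0.00243). Its level in collagen I is a small remainder after the level in 2D is subtracted, and is rough. The ratio of its levels was -5.23 on the log2 scale, and -4.45 with the tables scaled to 1 level in 2D. Its log2 change in collagen I in the authors' deposited table was -1.52. Of 42 genes of the oxygen response outside glycolysis 2 were called (Hif3a and Ankrd37), both higher in fibrin, 33 of the 42 differences lay below 0, and the median was -0.24. Of 29 genes of glycolysis and pyruvate control 1 was called (Pdk1), with a median of -0.097. The HIF hydroxylase Egln3 was at 77.9 and 226 reads and did not pass the test (-1.17 ± 0.43, adjusted p 0.478). The vascular growth factor Vegfa differed by 0.031 (95% interval -0.56 to 0.62), the glucose carrier Slc2a1 by -0.14 and lactate dehydrogenase Ldha by -0.094. Oxygen in the cultures was not measured.

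The core of the hypoxia response element, ACGTG, was searched on both strands in the same promoter windows, and the stretch of P4ha2 is shown because this gene had the largest fall in collagen I of the 3. The core was also chosen after the genes were seen. The stretch covers chr11:54100674-54100923 (plus strand) in GRCm38.p6, just upstream of the annotated gene, with the core in capitals.
P4ha2: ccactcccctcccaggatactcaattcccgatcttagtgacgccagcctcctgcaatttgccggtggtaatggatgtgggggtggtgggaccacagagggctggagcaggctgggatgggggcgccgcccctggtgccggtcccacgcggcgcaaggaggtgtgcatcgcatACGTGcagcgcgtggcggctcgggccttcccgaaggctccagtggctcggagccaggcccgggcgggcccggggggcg
The core began -78 bases from the start in P4ha2, with 1 more after the start, and the window of Ankrd37 held it as well, while the windows of Pdk1 and Hif3a did not. It was present for 12 of the 48 genes higher in fibrin (25%) and for 28.9% of genes tested with a window, so the share was no higher among the genes that differed.

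Igf1, insulin-like growth factor 1 (chr10:87858265-87937047), was at 43.6 reads in collagen I, 37.9 in 2D, 17.3 in Matrigel, 11 in the printed cultures and 616 in fibrin. Fibrin again stood alone (-3.17 ± 0.50, 8.98-fold by the fitted values, adjusted p 3.05e-07). Of 9 genes of the IGF axis 1 was called, 8 of the 9 differences lay below 0, and the binding protein Igfbp5 was at 7973 and 23181 reads (-1.23 ± 0.38, adjusted p 0.185). The receptor Igf1r differed by -0.14. Agt, angiotensinogen, the precursor of angiotensin made in the proximal tubule, was at 1012 reads in collagen I, 3347 in 2D and 5301 in fibrin (-2.10 ± 0.38, adjusted p 2.24e-05). The adhesion G protein-coupled receptors Adgra1 and Adgrb2 differed by -3.73 ± 0.42 and -3.51 ± 0.53. Anxa6, a calcium-dependent membrane-binding protein, was at 1810.1 reads in collagen I, 3139 in 2D and 9419 in fibrin and differed by -2.09 ± 0.30 (adjusted p 3.46e-09).

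Further called genes higher in fibrin spanned lipid and small-molecule metabolism, signalling and the clock. Mgll, which releases fatty acids from monoacylglycerol, differed by -2.12, the microsomal glutathione transferase Mgst1 by -2.17, Pipox, which oxidises pipecolic acid, by -1.72, and the ganglioside synthase St3gal5 by -1.14. Noxo1, an organiser of the NADPH oxidase Nox1, differed by -1.96 and the cyclic nucleotide phosphodiesterase Pde2a by -1.97. The clock factor Npas2 differed by -1.57, the pro-apoptotic Bmf by -1.93, and the actin bundler Lcp1 by -1.77. Gc, the vitamin D binding protein, was at 1833 reads in collagen I, 5947 in fibrin and 8003 in 2D (-1.40 ± 0.34). Acat3 (-1.41) has a close copy in the genome, and its share of the reads is uncertain. Other called genes, Fam167a, Plekhs1, Iqsec3, Crispld2, Prnd, Rcsd1, Dennd2d, Mab21l3, Slc45a4, 0610040J01Rik and D630003M21Rik, lay between -2.26 and -1.16.

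The 7 genes higher in collagen I included 2 of 26 genes of glutathione and of NRF2, the transcription factor of the oxidant response. Nqo1, a quinone reductase and a standard NRF2 target (chr8:107388225-107403205), was at 26634 reads in collagen I, 19509 in Matrigel, 13678 in the printed cultures, 10506 in fibrin and 5085 in 2D. Every 3D culture was above 2D, and collagen I was the highest (1.27 ± 0.33, 2.41-fold, adjusted p 0.0279). Gsta1, a glutathione transferase, was at 161 reads in collagen I and 5.7 in fibrin (2.11 ± 0.56, adjusted p 0.0335), and Gsta1 and Gsta2 are near-identical copies whose reads may be split between them. Its level in 2D was 25.6 reads, above that in fibrin, while its log2 change in fibrin in the authors' deposited table was 0.34, so its levels are rough. Of the list, 5 members were higher in collagen I and 2 in fibrin at an unadjusted p under 0.05, and the median was 0.27. Gsta2 and Srxn1, not called, differed by 1.03 and 0.76, while Gsta3 and Gstm2, not called either, had the opposite sign (-0.97 and -0.85). The glutathione transferase Mgst1, which is outside this list, was called in the opposite direction, higher in fibrin (-2.17 ± 0.52, z-test, adjusted p 0.00741). The NRF2 target Hmox1 differed by 0.59 ± 0.32 (adjusted p 1).

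The other genes higher in collagen I had varied roles, and 1 of them, Msln, was the called gene of 21 in the list of keratins and surface barrier genes, with a median of -0.019. This gene, for the surface glycoprotein mesothelin, was at 495 reads in collagen I, 579 in the printed cultures, 111 in 2D, 93.2 in Matrigel and 82 in fibrin. The 2 cultures with collagen I were the high ones (2.02 ± 0.44, adjusted p 0.00137). Nrcam, a cell adhesion molecule of neurons, was at 786 reads in collagen I, 539 in the printed cultures and 164 in fibrin (1.87 ± 0.44, adjusted p 0.00643). Npr3, the clearance receptor of natriuretic peptides, was at 465 reads in collagen I and 160.4 in fibrin (1.48 ± 0.38, adjusted p 0.0263). Cox6a2, a respiratory chain subunit of muscle, was called with 2.17 ± 0.49 (adjusted p 0.0027), but its levels, 21.9 reads in collagen I and 25.4 in fibrin, did not show that difference.

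Genes of proliferation and cholesterol synthesis were above 2D in both gels by their medians, and none of those listed passed the test between the gels. The 38 DNA replication genes had a median log2 change over 2D of 1.13 in collagen I and 1.04 in fibrin in the authors' deposited tables, and the median difference was 0.12. The 33 mitosis genes stood at 0.97 and 0.92, and the 25 cholesterol synthesis genes at 0.80 and 0.69, also medians of the authors' deposited values. In these 3 lists 0 genes were called by the z-test, and 0 had an unadjusted p under 0.05. The 37 genes of the respiratory chain and ATP synthase gave 35 differences above 0, all small, from -0.042 (Ndufa8) to 0.29 (Ndufb3) with a median of 0.15, and 0 were called or had an unadjusted p under 0.05. Over all genes 7331 of 13799 differences lay above 0. Of 33 interferon response genes 0 were called, with 4 higher in fibrin at an unadjusted p under 0.05 and a median of -0.32. Of 26 p53 targets 0 were called by the z-test, with 2 higher in collagen I at an unadjusted p under 0.05 and a median of 0.30. Lists of fatty acid synthesis (19 tested), fatty acid oxidation (22), amino acid and protein stress (36), cilia (36) and reprogramming and kidney transcription factors (11) held 0 called genes and 0 at an unadjusted p under 0.05. Immediate early genes (33) and drug-metabolising enzymes (18) held 0 called genes by the z-test, with 1 in each direction at an unadjusted p under 0.05. Of 32 drug-metabolising enzymes found, 18 were tested. Ugt1a9, Ugt1a10, Ugt1a6a and Ugt1a6b reached the base mean in the fibrin table only and were not tested. Their log2 changes in the authors' deposited tables were 5.68, 2.45, 1.88 and 1.52 in fibrin and 0.57, 0.16, 0.56 and 0.17 in collagen I.

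**Figure D3:**
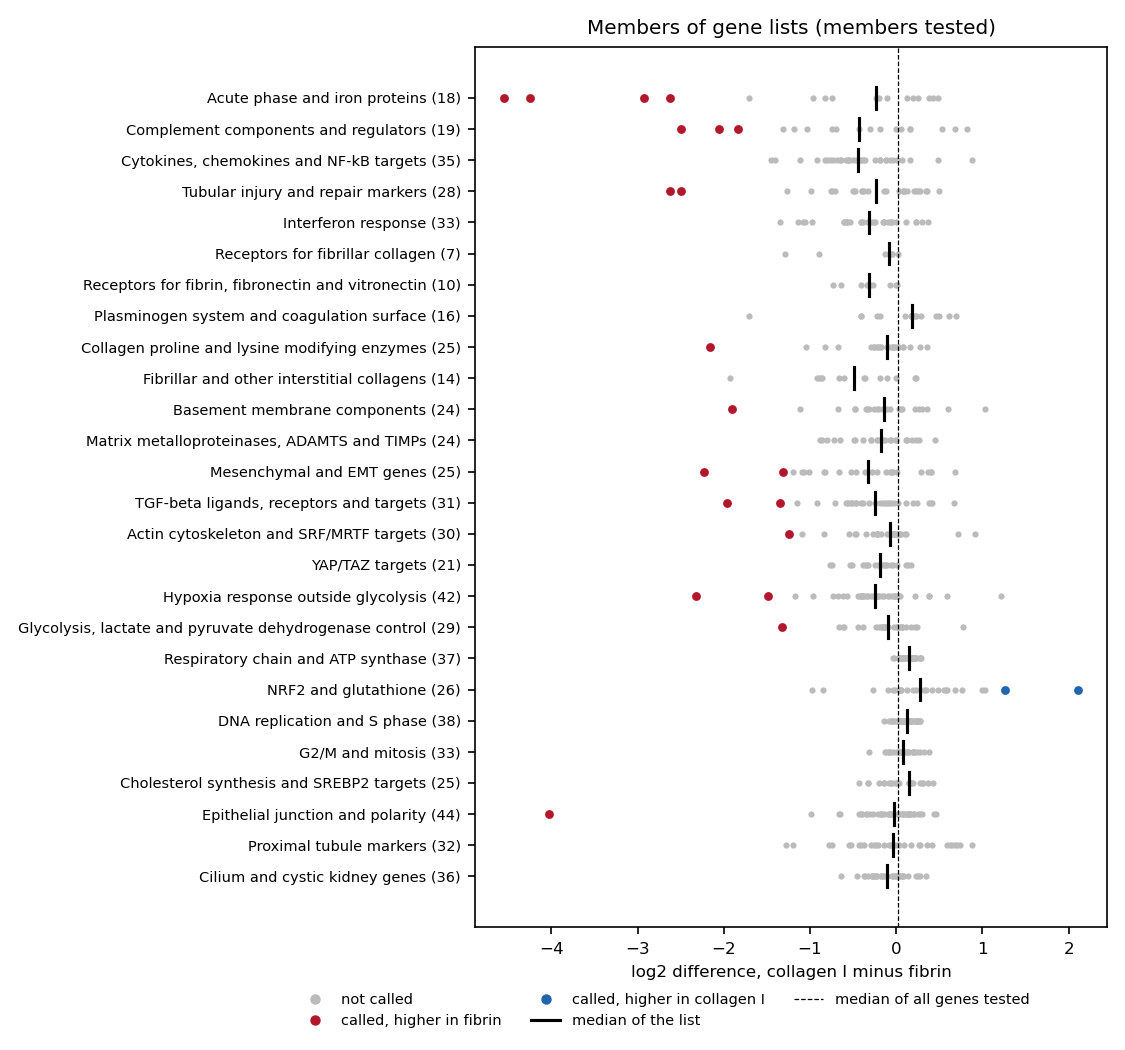
Differences between collagen I and fibrin (log2, horizontal axis) of the tested members of 26 gene lists, 1 point per gene, with the number of members tested in parentheses. Red and blue points passed the test, black bars are list medians and the dashed line is the median of all genes, 0.016. The called members sit at the far left of the acute phase and complement lists, while the replication, mitosis and respiratory chain points stay within -0.31 and 0.38.

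The bioprinted cultures hold both gels, and their values are set beside the 2 hand-made gels without a test. For the 67 genes higher in fibrin, the printed value over 2D lay between the 2 gels for 50 genes, below both for 12 and above both for 5, and it was nearer to collagen I for 50. Matrigel, which is neither gel, gave close to the same counts: 49 between, 12 below both, 6 above both and 47 nearer to collagen I. The median log2 change of the 67 over 2D in the authors' deposited tables was -0.64 in collagen I, -0.11 in the printed cultures, -0.17 in Matrigel and 1.40 in fibrin. For the 7 genes higher in collagen I, the printed value lay between the gels for 7 and was nearer to collagen I for 4. The 5 above both were Lamb3, Hif3a, P4ha2, Ankrd37 and Pdk1, and in the authors' deposited table the last 3 had printed values of 1.46, 0.38 and 1.07 over 2D against negative values in both gels. The 12 below both included the 4 called Serpina3 genes, Igf1, Cebpd and Casp1. Dispensing differed between the printed and the hand-made cultures as well as the gel, and the 2 cannot be told apart.

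Levels differed more than the fitted differences did. Among the 73 called genes with both levels above 0, the ratio of levels was larger in size than the difference for 72, the exception being Cox6a2, and the 2 values were more than 1 apart on the log2 scale for 13, among them Ehf, Hif3a, Serpinf1 and Gsta1. Of the 11242 genes whose base mean was at least 100 in each table, 18 had a ratio of levels that departed from the deposited difference by more than 1 on the log2 scale, and 17 of these had the higher level in fibrin. The 6 widest were Lcn2, Il1f6, Cxcl5, Nos2, Saa3 and Clca3b, and of these Lcn2 alone was called. Cxcl5, a neutrophil chemokine, was at 3347 reads in collagen I, 3675 in 2D, 3713 in Matrigel, 3286 in the printed cultures and 67499 in fibrin, yet its fitted difference was -1.11 ± 0.52 (adjusted p 1). Saa3, serum amyloid A3, was at 269 and 3541 reads (-0.96 ± 0.44), and Nos2, the inducible nitric oxide synthase, at 99.7 and 1066 (-0.24 ± 0.26). Il1f6, a cytokine of the interleukin 1 family now named Il36a, was at 707 and 8261 reads, rough values since the same computation gave levels below 0 in Matrigel and the printed cultures. Clca3b, a calcium-activated chloride channel regulator, was at 730.1 and 6817. A mean over 3 cultures can be carried by 1 of them, and without values per library this was not tested. The deposited fold changes were also taken to be shrunken, that is, drawn towards 0, by the authors' fit. The part of this in the gap was not tested.

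**Figure D4:**
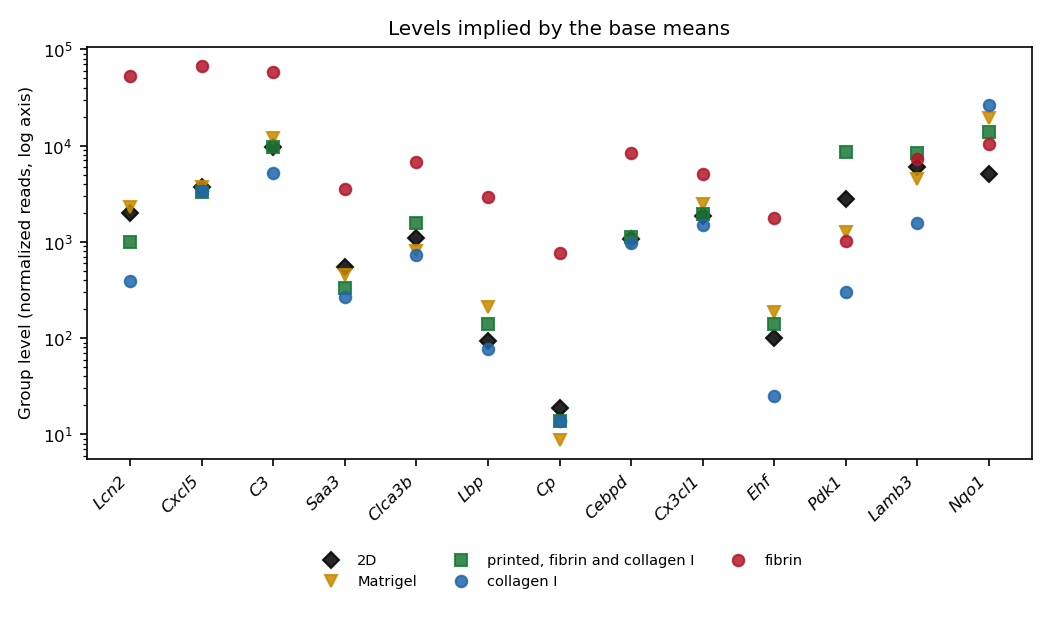
Group levels in normalized reads (log axis) computed from the base means for 13 genes, 1 point per group, with no error bar because the tables give no spread of a level. Fibrin (red) is the highest group for the first 10 genes, with levels from 67499 (Cxcl5) down to 770.4 (Cp), and collagen I (blue) is the highest for Nqo1.

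The genes that reached the base mean in 1 table only, 216 in the fibrin table and 87 in the collagen I table, were not tested, and examples from each are given. Members of the gene lists among them are therefore not in the counts of members tested or called. In the authors' deposited tables the glucuronosyltransferase Ugt1a9 had a base mean of 361 with a log2 change of 5.68 in fibrin, and of 8.56 with 0.57 in collagen I. Ugt1a genes share exons, so its reads may belong in part to its neighbours. The antimicrobial peptide Defb1 had base means of 160.0 and 6.22 in the authors' deposited tables, with log2 changes of 3.62 and -0.32, and the secreted mucin Muc5b 84.6 and 9.13, with 2.28 and -0.16. In the other direction, serum albumin (Alb) had base means of 31.1 in the collagen I table and 2.79 in the fibrin table of the authors' deposited values, with log2 changes of 2.17 and 0.089. These 4 were chosen after their values were seen.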

How the data were processed

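RNA-seq of 15 libraries (5 groups of 3) had been processed by the authors. The submitters' processing notes name genome build mm10 and, without their order, the aligner STAR (2.6.0b-1), DESeq2 (1.22.1) as used by the authors, featureCounts (1.6.3), and for read quality Trim Galore (0.4.3) and FastQC (0.72). For the counting, annotation and strand setting, and for the fit, the formula, are each not given in the sources used here, so reads of overlapping or antisense genes cannot be told apart. Each deposited table compares 1 culture with 2D and, per the file headers, holds a base mean (the mean normalized count, that is, signal in counts divided by size factors), a log2 fold change with its standard error in log2, a Wald statistic (a score), a p-value and an adjusted p-value. The log2 fold changes were taken to be shrunken, that is, drawn towards 0, by the authors' fit. For 72 of 73 called genes with resolved levels, the ratio of levels was larger in size than the difference of the deposited log2 values.

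The difference of the 2 deposited log2 fold changes was taken for genes whose base mean reached 10 in each table, and its standard error combined both deposited ones in quadrature. P-values came from a two-sided z-test on these values from the authors' DESeq2 fit, with Benjamini-Hochberg adjustment over 13799 genes and a threshold of 0.05. The level in 2D was the median implied by the 4 tables, and that of a gel was 2 times its base mean less the level in 2D. On simulated data with 100 genes at each size, this test recovered 22% of log2 changes of 1 and 90% of those of 2, and called 0 unchanged genes. With the shared 2D part taken out it recovered 67% and 100% and called 15 unchanged genes, and with the empirical null 64% and 100% with 11. Recovery of log2 changes drawn towards 0 by a fit, as the deposited ones were taken to be, was not tested. Recovery with a spread that differs between the groups was not tested either. These percentages therefore do not give the recovery in the deposited tables. Alternatives were the shared 2D part taken out, an empirical null, base means of 1 and 100, centring, a log2 difference of at least 1, Bonferroni adjustment and levels, and, chosen after seeing the data, tables scaled to 1 level in 2D.

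Genes named by rule were the 12 highest and 12 lowest called differences at a base mean of 100 or more, up to 6 called members per list, members of the receptor, collagen-modifying and plasminogen lists, and the 6 genes with the widest gap between levels and fold changes. Other genes named, and the motifs, were chosen after their values were seen. The members and the 42 gene lists were chosen with earlier results of these data known. Some genes are not reported here. Gene positions and promoters came from RefSeq (GRCm38.p6), matched by gene identifier. Python 3.11.15, pandas 2.3.3, NumPy 2.4.6, SciPy 1.17.1 and matplotlib 3.10.9 were used.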

Additional observations from a re-analysis of the deposited data

How the results depend on the processing

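No paired analysis was possible because the tables hold no values per library, and for the same reason leaving out a replicate was not run. The count of 74 genes became 264 (52 higher in collagen I, 212 in fibrin) with the shared 2D part taken out of the standard error, and 509 (142 and 367) with the empirical null. It was 45 (4 and 41) at a base mean of 100 or more, where fewer genes were tested, and 36 (0 and 36) with the stricter Bonferroni adjustment. A base mean of 1 or more, a log2 difference of at least 1, centring and leaving out genes without a p-value kept it within 1.5 times. The number of lists with a called member rose from 15 to 25 with the 2D part taken out and to 33 with the empirical null. All 74 genes stayed called under those 2 settings. Fstl1, Cald1 and 0610040J01Rik lost their call at a base mean of 100 or more, and Dennd2d at 1 or more. By the ratio of levels with 2D taken from the Matrigel and printed tables, Cox6a2 turned from 2.17 to -0.23, and the cause was not tested. In this setting 41 called genes moved by at least their standard error and 27 by less, and the remaining called genes had no resolved ratio. With 2D taken from all 4 tables, the direction by levels matched the call for 72 of 74 genes, with Muc20 not resolved. With a median standard error of 0.34, differences of 1 on the log2 scale were mostly below what the test could call.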
